A study of Mus musculus with 12 samples.

Results

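The genes described are those of phosphocreatine turnover, oxygen storage and glycogen breakdown in muscle fibres, namely Ckm, Ckb, Ckmt2, Mb, Eno3, Pygm, Pfkm, Pgam2, Ampd1 and Aldoa. Members were the array probes whose gene symbol was one of these 10. The probe table named 14 probes for them, 12 of which passed the detection filter, and 9 of the 10 genes were among the 10346 genes tested. Ckmt2 was not tested because its only probe was detected on 1 of the 12 arrays, with log2 values between 4.71 and 5.53. For Ampd1 a second probe was detected on 0 arrays and was not used.

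The cells were C2C12, a mouse myoblast line that leaves the cell cycle and fuses into myotubes when growth serum is withdrawn. Illumina BeadChip arrays covered 6 groups of 2 arrays each: wild-type C2C12 kept in growth medium (GM), the same wild type moved to differentiation medium (DM), and 4 groups of transfected C2C12 moved to differentiation medium. Of the transfected groups, siScramble received a scrambled sequence, siBRG1 an siRNA pool to BRG1, siBAF60b one to BAF60b and siBAF60c one to BAF60c. Going by the protocols in the labels, siRNAs were Smart Pool mixtures given to cells growing in 15% FBS, the medium was changed to ITS 36 h later, and RNA was taken 18 h after that. One protocol text accompanied all samples, so it is not known whether the wild-type groups saw a transfection reagent. The labels do not state that a pair of replicates came from separate cultures, and where they did not the p-values measure technical spread alone.

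As background, creatine kinases pass phosphate between ATP and creatine. Ckm encodes the cytosolic muscle subunit, Ckb the cytosolic brain subunit, which also appears early in muscle differentiation, and Ckmt2 the mitochondrial enzyme of sarcomeric muscle. Mb encodes myoglobin, the oxygen-binding haem protein of muscle. Glycogen phosphorylase (Pygm) releases glucose units from glycogen, and phosphofructokinase (Pfkm), aldolase A (Aldoa), phosphoglycerate mutase (Pgam2) and beta-enolase (Eno3) carry them down glycolysis, each as the isoform typical of muscle. Ampd1 encodes the muscle AMP deaminase of the purine nucleotide cycle. BRG1 is an ATPase of the SWI/SNF chromatin remodelling complex, and BAF60b and BAF60c are alternative subunits that link the complex to transcription factors. The comparisons ask how far these metabolic genes are induced on the change of medium and how their levels stand when a SWI/SNF subunit is depleted.

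Promoter windows from RefSeq on GRCm38.p6 matched 9 of the 10 members, with 16 windows in all and 6 genes with a single window. The 250 bases before the first transcribed base are shown for 3 single-window genes with large differences between media (Ckm, Ckb and Pgam2) and for Eno3, whose level hardly differed between media. Capitals mark E-boxes (CANNTG, the motif class bound by MyoD and related factors) and, in Ckb, a MEF2 motif with the TATAAA that lies inside it. The Ckm window is chr7:19410844-19411093 on the plus strand, that of Ckb chr12:111672339-111672588 on the minus strand, that of Pgam2 chr11:5803797-5804046 on the minus strand and that of Eno3 chr11:70656926-70657175 on the plus strand.
Ckm: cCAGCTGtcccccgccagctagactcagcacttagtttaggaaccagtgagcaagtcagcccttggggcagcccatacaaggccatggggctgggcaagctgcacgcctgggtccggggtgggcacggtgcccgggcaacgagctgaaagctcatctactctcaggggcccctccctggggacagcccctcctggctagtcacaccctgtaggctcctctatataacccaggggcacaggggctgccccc
Ckb: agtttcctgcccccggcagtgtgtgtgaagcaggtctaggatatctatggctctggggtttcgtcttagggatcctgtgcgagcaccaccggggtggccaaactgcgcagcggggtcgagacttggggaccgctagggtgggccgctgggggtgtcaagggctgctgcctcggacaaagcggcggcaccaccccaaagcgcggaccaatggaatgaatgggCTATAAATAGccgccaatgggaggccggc
Pgam2: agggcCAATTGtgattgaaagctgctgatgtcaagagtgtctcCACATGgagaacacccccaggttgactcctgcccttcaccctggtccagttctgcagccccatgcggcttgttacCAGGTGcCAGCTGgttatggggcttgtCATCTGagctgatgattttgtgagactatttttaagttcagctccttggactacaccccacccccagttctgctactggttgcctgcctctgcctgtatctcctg
Eno3: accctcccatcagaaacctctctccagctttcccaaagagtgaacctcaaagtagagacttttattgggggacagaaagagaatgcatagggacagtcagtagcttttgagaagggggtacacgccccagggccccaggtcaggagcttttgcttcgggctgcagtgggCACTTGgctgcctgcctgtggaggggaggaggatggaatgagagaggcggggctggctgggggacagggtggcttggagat

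Motifs were counted on both strands by exact letters, and positions are those of the motif's leftmost base as printed, in bases before the first transcribed base. In the Ckm window the only CANNTG was a CAGCTG at 249. The Pgam2 window held 5 CANNTG motifs, at 245, 207, 132, 125 and 105, of which that at 132 was a CACCTG on the opposite strand and that at 125 a CAGCTG. The Eno3 window held 1, at 81, and the Ckb window none. Ckb carried the only MEF2 motif among the member windows, at 29, overlapping a TATAAA at 28. Over the 16 member windows CANNTG was found in 14, against 66.2% of all 32851 windows in the table. CAGCTG, which is also counted as CANNTG, was found in 6 of 16 against 13.0%, and CACCTG in 4 of 16 against 17.2%. CATTCC was found in 3 of 16 against 12.6%, TATAAA in 1 against 12.4%, a MEF2 motif in 1 against 0.508% and a CArG box in 0 against 1.47%. Windows of one gene can overlap, and a match of letters does not show that a factor binds there.

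All levels are log2 normalized intensity, differences are first group minus second on that scale, and a gene was called at a Benjamini-Hochberg adjusted p under 0.05 over all genes of a comparison in the limma fit of the 12 arrays. A level is not comparable between genes, because each probe has its own response. The lowest detected signal on an array lay between 5.20 and 5.53. Detected probes ran from 28.1% to 34.0% of those on the array. The DM pair was the least alike, with a correlation of 0.945 across genes, and the other pairs reached 0.979 to 0.988. The 6 tested markers of differentiating muscle, among them Myl1, Tnnc1 and Actc1, were all called higher in DM than GM. Their summed normalized intensity was 2524 to 3222 in GM and 61350 to 66120 in DM. The 5 myoblast markers (Myod1, Myf5, Des, Cdh15 and Itga7), all tested, did not fall as a sum. It was 5704 to 6055 in GM and 12400 to 29890 in DM. With siScramble it was 13530 to 17310, with siBRG1 9989 to 10100, with siBAF60b 11770 to 13910 and with siBAF60c 13420 to 16110. Of 5 markers listed for each cell type outside muscle, 1 was tested for adipocytes, 3 for osteoblasts and chondrocytes, 1 for macrophages and endothelium and 2 for neurons. Over all arrays their sums ran from 35.1 to 73.8, 88.9 to 129, 36.8 to 86.5 and 137 to 538 in that order, and such sums of different probes are not comparable between lists. The neuronal sum was 202 to 223 in GM and 324 to 538 in DM, and its part in the results was not tested. It was made up mostly of Eno2, which is also an enolase partner of Eno3. Eno2 read 7.45 and 7.59 in GM and 8.20 and 8.95 in DM, while Syp, the other tested gene, was below detection in both. In bulk RNA, fewer differentiated cells and less RNA per cell cannot be told apart. Each siRNA group had its own target lower than siScramble, with differences of -0.92 for Smarca4 (BRG1), -1.55 for Smarcd2 (BAF60b) and -0.94 for Smarcd3 (BAF60c). None passed over all genes (adjusted p 0.515, 0.679 and 0.858 in limma). Mean Smarcd3 was 8.81 with siScramble, 8.24 with siBRG1, 8.52 with siBAF60b and 7.87 with siBAF60c. In that order mean Smarca4 was 7.49, 6.57, 7.31 and 7.25, and mean Smarcd2 9.77, 9.79, 8.22 and 9.64.

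In differentiation medium 7 of the 9 tested members rose, where 10.5% of all genes did, and 0 fell, where 8.93% did. The 2 cytosolic creatine kinases, myoglobin and the mutase Pgam2 rose by 4.004 to 5.39 on the log2 scale. The kinase Pfkm, Aldoa and Pygm rose by 1.19 to 1.65, and Eno3 and Ampd1 did not pass. The median over the 9 genes was 1.65, against 0.07 over all genes. Pygm passed the detection filter only through its DM and siScramble arrays. When detection on at least 6 arrays was asked for, Pygm left the fit and 6 of 8 members rose.

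The muscle creatine kinase gene Ckm, on chromosome 7 at 19411094 to 19421583 (GRCm38.p6), went from undetected to clearly detected. It read 4.75 and 4.73 in GM, both below detection, 9.84 and 10.36 in DM, 9.74 and 8.89 with siScramble, 8.06 and 7.57 with siBRG1, 8.73 and 8.24 with siBAF60b, and 9.09 and 7.62 with siBAF60c. Every differentiated array therefore stood above both GM arrays, and both siBRG1 arrays below both siScramble arrays. DM exceeded GM by 5.36 (SE 0.43, adjusted p 1.44e-06, n = 2 per group in limma), under this processing at least 28.4-fold. Over the alternatives described below the difference ran from 3.20 to 5.62, so a smaller fold is not excluded. In siScramble the gene was by the same bound at least 16.5-fold above GM (difference 4.58, interval 3.66 to 5.50, adjusted p 7.34e-06). That difference ran from 2.52 to 5.01 over the alternatives.

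Ckb, on chromosome 12 at 111669355 to 111672338, was detected in every group, GM included. Its levels were 10.72 and 10.60 in GM, 14.22 and 15.20 in DM, 13.70 and 13.88 with siScramble, 13.37 and 13.37 with siBRG1, 13.50 and 13.75 with siBAF60b, and 13.20 and 13.32 with siBAF60c. The DM arrays were the highest and differed from each other by more than the transfected groups spanned. The rise in DM was 4.06 (SE 0.31, adjusted p 8.75e-07), or 16.7-fold, and the rise in siScramble 3.13 (adjusted p 1.05e-05). Transcripts of both cytosolic subunits thus rose.

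Myoglobin had one of the largest differences. Its main probe (gene on chromosome 15 at 77015487 to 77050668) read 6.61 and 6.31 in GM, 11.94 and 11.77 in DM, 10.85 and 10.16 with siScramble, 9.52 and 9.40 with siBRG1, 9.85 and 9.77 with siBAF60b, and 10.0004 and 9.22 with siBAF60c. DM stood above all transfected arrays, and all transfected arrays above GM. The DM difference from GM was 5.39 (SE 0.31, adjusted p 1.47e-07), 42.0-fold. A second, dimmer Mb probe rose by 3.54 (adjusted p 0.000522 over all kept probes).

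Of the 5 enzymes of glycogen and sugar breakdown 4 rose in DM. Pygm, the phosphorylase, was dim, at 4.48 and 5.06 in GM, 5.70 and 6.22 in DM, 6.52 and 5.43 with siScramble, 4.81 and 5.15 with siBRG1, 5.21 and 4.97 with siBAF60b, and 5.27 and 4.96 with siBAF60c. It was detected on both arrays of DM and siScramble and on 0 arrays of the other 4 groups. Its rise in DM was at least 1.61-fold (difference 1.19, SE 0.36, adjusted p 0.0319). That call held under 6 of 14 alternatives. It was lost without GM replicate 1 (0.90), GM replicate 2 (1.48) or DM replicate 2 (0.93). With signal not corrected for background (0.49, adjusted p 0.0706) or the authors' processed values (0.49, 0.0702) it did not pass. Nor did it with array weights (1.19, 0.150) or only the groups compared (1.19, 0.0986).

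Pfkm, which commits sugar to glycolysis, read 9.10 and 8.21 in GM, 10.34 and 10.27 in DM, 10.07 and 10.14 with siScramble, 10.12 and 9.47 with siBRG1, 9.68 and 9.64 with siBAF60b, and 9.70 and 9.54 with siBAF60c. The GM arrays were apart by more than those of any other group and lay below the rest. It rose by 1.65 in DM (SE 0.32, adjusted p 0.00236). Of its other kept probes one gave 1.63 (adjusted p 0.00712) and a dim one, between 5.56 and 6.53, gave 0.18 (0.778).

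Aldoa, which splits fructose bisphosphate, read 11.06 and 11.50 in GM, 12.53 and 13.17 in DM, 12.14 and 12.15 with siScramble, 11.75 and 12.05 with siBRG1, 12.46 and 11.72 with siBAF60b, and 12.26 and 12.06 with siBAF60c. GM was lowest and no GM array overlapped another group. The rise in DM was 1.57 (SE 0.32, adjusted p 0.00334). Under median scaling in place of quantile normalization the median of all genes moved to -0.48 and the differences of Aldoa (0.71, adjusted p 0.311), Pfkm (0.82, 0.360) and Pygm (0.97, 0.133) no longer passed, which left 4 called members.

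Pgam2 had the largest difference of the glycolytic members. It read 5.34 and 4.78 in GM, with detection on 1 of those arrays, 9.21 and 8.92 in DM, 9.79 and 9.07 with siScramble, 8.72 and 8.07 with siBRG1, 9.39 and 8.74 with siBAF60b, and 8.88 and 7.75 with siBAF60c. No differentiated array came near the GM pair. The rise in DM was 4.004 (SE 0.40, adjusted p 1.00e-05).

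Eno3, the next enzyme, was bright in every group, at 12.84 and 12.60 in GM, 12.58 and 12.99 in DM, 12.33 and 12.40 with siScramble, 11.94 and 12.04 with siBRG1, 12.62 and 12.48 with siBAF60b, and 12.13 and 12.29 with siBAF60c. GM and DM overlapped, with a difference of 0.06 (95% confidence interval -0.49 to 0.61, adjusted p 0.902). Ampd1 lay at the edge of detection on all arrays, between 5.07 and 6.32, and was detected on 6 of 12. Its DM difference was 0.46 (interval -0.32 to 1.25, adjusted p 0.414).

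**Figure D1:**
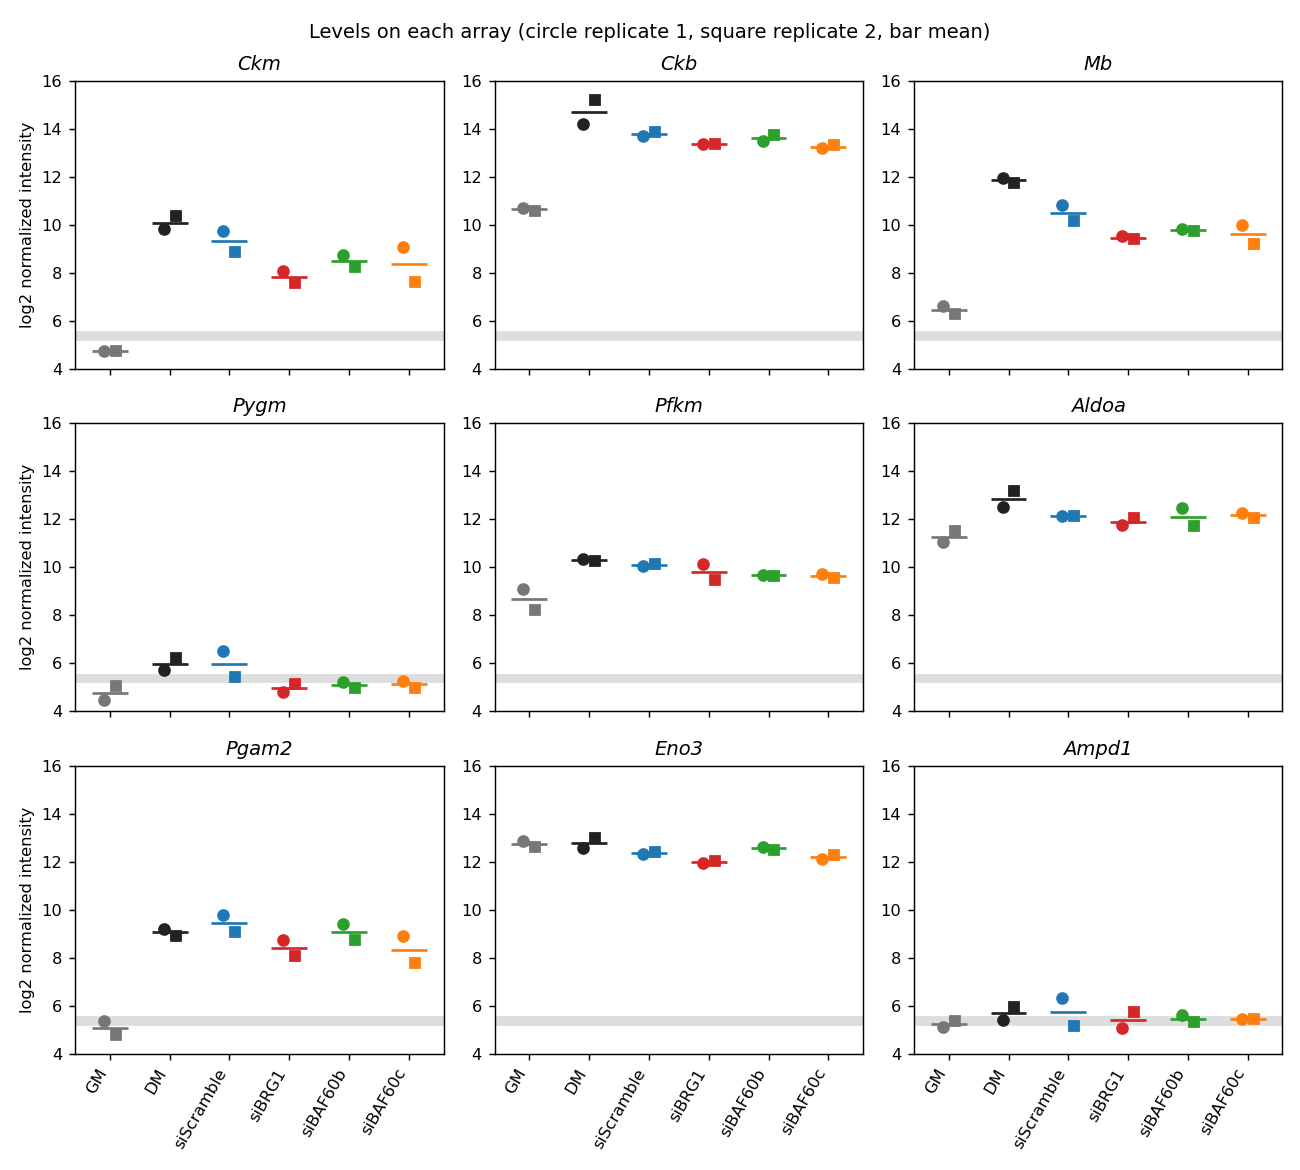
Log2 normalized intensity (vertical axes) of the 9 tested genes in the 6 groups, with replicate 1 as a circle, replicate 2 as a square, the mean as a bar and the range of the lowest detected signals (5.20 to 5.53) as a grey band. Ckm lies below the band in GM and between 7.57 and 10.36 elsewhere, whereas Eno3 lies between 11.94 and 12.99 in all groups.

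In cells that had received the scrambled siRNA, 6 of 9 members rose over GM, where 6.3% of all genes did. With detection asked for on at least 6 arrays Pygm left the fit, and 5 of 8 rose. Ckm, Ckb, Mb and Pgam2 differed by 4.58, 3.13, 4.04 and 4.37, Pfkm by 1.45 (adjusted p 0.00713) and Pygm by 1.21 (0.0406). Aldoa stood 0.87 above GM and did not pass (0.0986). It passed under 2 of 15 alternatives, 1 of them the chip as a fixed block (1.001, adjusted p 0.0439). Over the alternatives its difference ran from 0.02 to 1.09. Eno3 was at -0.35 (0.443) and Ampd1 at 0.52 (0.426). Pfkm lost its call without siScramble replicate 1 (1.48, adjusted p 0.0520) or GM replicate 2 (1.00, 0.121). Pygm lost its own without siScramble replicate 1 (0.66), GM replicate 1 (0.92) or GM replicate 2 (1.49). Pygm also failed without background correction (0.52, adjusted p 0.0827) and with the authors' processed values (0.51, 0.0836), and passed under 8 of 14 alternatives. With median scaling neither passed (Pfkm 0.57, adjusted p 0.517, and Pygm 0.98, 0.143). DM and siScramble were both compared with the same GM arrays.

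Set directly against DM, siScramble had 1 of 9 members called lower, where 1.74% of all genes were, and 0 called higher, where 1.66% were. That gene was Mb, which stood 1.35 below DM (SE 0.31, adjusted p 0.0324). Its second probe gave -0.76 and did not pass (0.483). Ckb was at -0.92 (0.119), Ckm at -0.78 (0.344) and Aldoa at -0.71 (0.257), while Pgam2 was at 0.36 (0.677). The Mb call did not hold without DM replicate 2 (-1.44, 0.0761) or siScramble replicate 2 (-1.01, 0.235). Without DM replicate 1, 3 members were called, with Ckb at -1.41 (0.00304) and Aldoa at -1.03 (0.0465) beside Mb. On the chip that carried an array of both groups, the Mb difference was -1.78, that of Ckm -0.95 and that of Ckb -0.34.

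Most members also stood above GM in cells depleted of a SWI/SNF subunit. In siBRG1 5 of 9 rose (4.38% of all genes), in siBAF60b 4 of 9 (5.45%) and in siBAF60c 4 of 9 (5.69%). By the bound on the means under this processing, Ckm was at least 5.84-fold above GM in siBRG1, 9.27-fold in siBAF60b and 8.47-fold in siBAF60c. Its differences were 3.08, 3.75 and 3.62, and over the alternatives they went as low as 1.39, 1.86 and 1.79. Ckb rose by 2.72, 2.97 and 2.61 in the same order. For Mb the rises were 3.003, 3.34 and 3.15, while its second probe gave 1.82 in siBRG1 (adjusted p 0.0664 over all kept probes) and 1.61 in siBAF60c (0.0824), which did not pass, and 2.24 in siBAF60b (0.0186), which did. For Pgam2 they were 3.34, 4.01 and 3.26. Pfkm passed in siBRG1 (1.14, adjusted p 0.0424) and stood at 1.00 in siBAF60b (0.0608) and 0.97 in siBAF60c (0.0679). In siBRG1 its other kept probes gave 1.27 (adjusted p 0.0575 over all kept probes) and, for the dim one, 0.03 (0.987), and neither passed. The Pfkm call in siBRG1 was lost without siBRG1 replicate 1 (0.81, 0.420), siBRG1 replicate 2 (1.46, 0.0552) or GM replicate 2 (0.70, 0.418), and with median scaling (0.69, 0.691). Without GM replicate 1 it passed in siBAF60b (1.45, 0.0292) and siBAF60c (1.41, 0.0362), as it did with the replicate number as a block (0.0388 and 0.0444). Pygm, which was below detection in the 3 knockdown groups and in GM, has no interpretable fold there. Eno3 went the other way and did not pass. It stood at -0.73 in siBRG1 (adjusted p 0.115), -0.17 in siBAF60b (0.776) and -0.51 in siBAF60c (0.255). These comparisons share the GM arrays with those above.

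**Figure D2:**
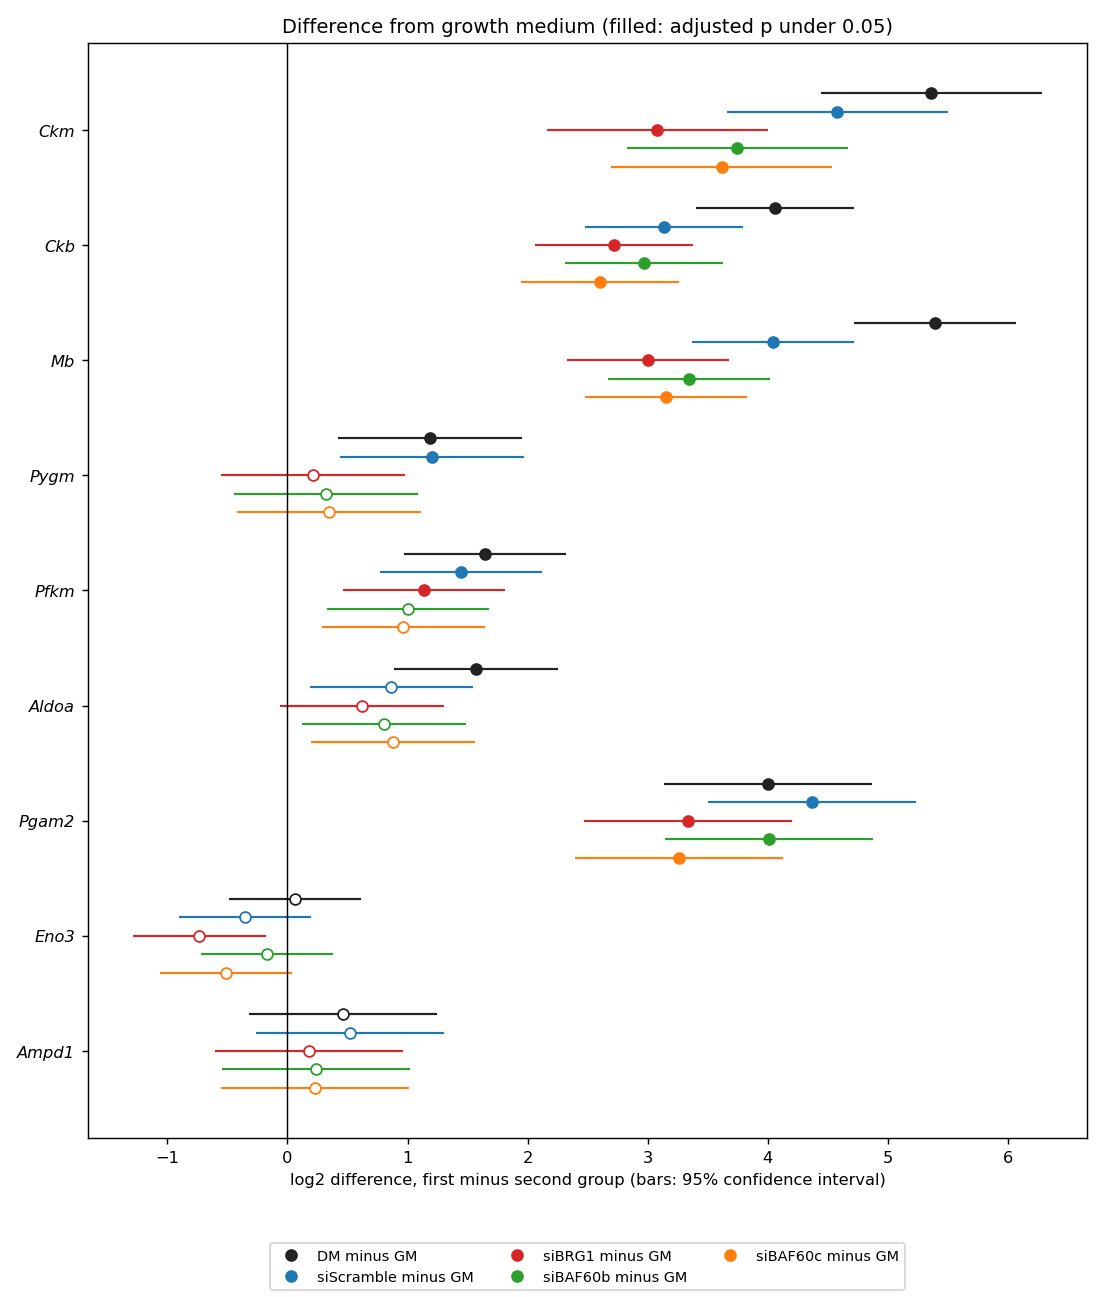
Log2 difference from GM (horizontal axis) of each tested gene in the 5 differentiated groups, as points with 95% confidence intervals from the limma fit and filled where the adjusted p was under 0.05. Ckm, Ckb, Mb and Pgam2 are filled in all 5 groups, at 2.61 or higher, and Eno3 and Ampd1 in none.

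Against siScramble, no member passed in siBRG1 cells, where limma called 0.28% of all genes. All 9 differences were below 0, with a median of -0.42, against 0.01 over all genes, of which 48.3% were below 0. Under some alternative processing Eno3 (up to 0.03), Pfkm (0.12), Ampd1 (0.25) and Aldoa (0.16) stood above 0. Ckm, Ckb, Mb, Pygm and Pgam2 stayed below 0 under all of them. At an unadjusted p under 0.05 there were 4 members (8.07% of all genes). These were Ckm at -1.50 (95% confidence interval -2.42 to -0.58, adjusted p 0.231), Mb at -1.04 (-1.72 to -0.37, 0.271), Pgam2 at -1.03 (-1.90 to -0.17, 0.478) and Pygm. Pygm was below detection on both siBRG1 arrays, so only a bound on the means holds, at least 1.57-fold lower (interval -1.76 to -0.23, adjusted p 0.420). It passed the detection filter only through its DM and siScramble arrays, so that filter favoured its place in the counts here and below. Ckb was at -0.42, Eno3 at -0.38, Ampd1 at -0.34, Pfkm at -0.31 and Aldoa at -0.25. Both siBRG1 arrays lay below both siScramble arrays for 7 members (Ckm, Ckb, Mb, Eno3, Pygm, Pgam2 and Aldoa), as they did for 20.1% of all genes.

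The 2 groups shared 1 chip, with 1 array each. There the siBRG1 array was lower by 1.68 for Ckm, 1.32 for Mb and 1.06 for Pgam2, and Pfkm was at 0.05. With the chip as a fixed block, Ckm stood at -1.65 (adjusted p 0.0598). The summed muscle markers moved alongside. They came to 38820 to 51030 on the siScramble arrays and to 18290 to 25730 on those of siBRG1, and their part in these values was not tested.

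In siBAF60b cells no member passed against siScramble either (limma, 0.00967% of all genes called). Of the 9 differences 8 were below 0, with a median of -0.36, against 0.00 over all genes. Among those 8, Ckb, Ampd1 and Aldoa stood above 0 under some alternative processing. At an unadjusted p under 0.05 there were 2 members (3.53% of all genes), Mb at -0.70 (interval -1.37 to -0.03) and Pygm, with adjusted p 0.999 for both. Pygm was below detection in siBAF60b and by the means at least 1.55-fold lower (interval -1.65 to -0.12). The arrays lay apart, with siBAF60b lower, for 4 members (Ckm, Mb, Pygm and Pfkm), as for 16.5% of all genes. Eno3 was the 1 member with both siBAF60b arrays higher, as for 16.1% of all genes (0.18, interval -0.37 to 0.73). Aldoa was at -0.06 (-0.74 to 0.62). The muscle markers summed to 32220 to 40150.

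In siBAF60c cells the counts were again 0 called (limma, 0.00967% of all genes) and 8 of 9 below 0, with a median of -0.53, against 0.00 over all genes. Among those 8, Ampd1 stood above 0 under some alternative processing. At an unadjusted p under 0.05 there were 4 members (4.61% of all genes). Pgam2 was at -1.11 (interval -1.97 to -0.24, adjusted p 0.853), Ckm at -0.96 (-1.88 to -0.04, 0.9998), and Mb at -0.90 (-1.57 to -0.22, 0.817). Pygm was below detection in siBAF60c and by the means at least 1.47-fold lower (interval -1.63 to -0.09, 0.9998). Arrays lay apart, with siBAF60c lower, for 6 members, as for 16.3% of all genes. Ckm was not among them, since siBAF60c replicate 1, at 9.09, stood above siScramble replicate 2, at 8.89. The muscle markers of the siBAF60c pair were also uneven, at 18880 to 44030, and their part was not tested. The 3 knockdown comparisons share the siScramble arrays.

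**Figure D3:**
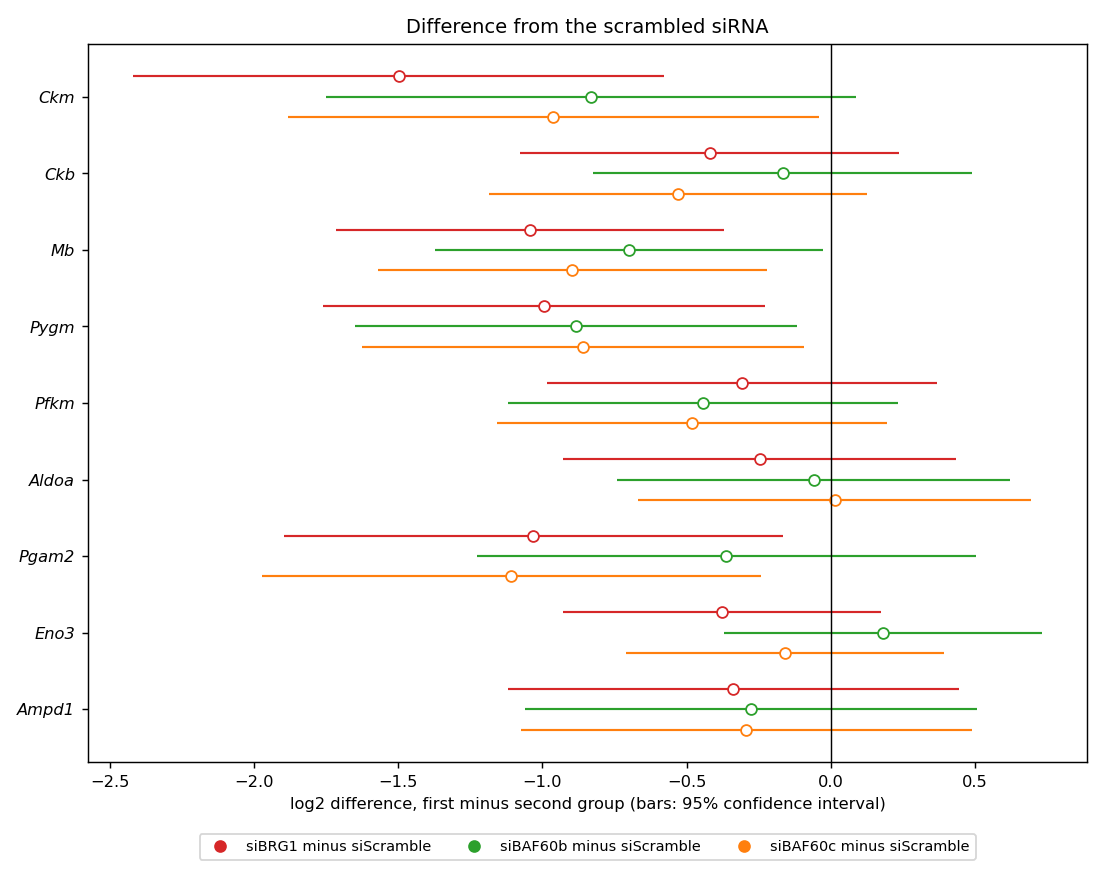
Log2 difference from siScramble (horizontal axis) of each tested gene in the 3 knockdown groups, as open points (none passed) with 95% confidence intervals from the limma fit. In siBRG1 the points run from -1.50 for Ckm to -0.25 for Aldoa, and the intervals of Ckm, Mb, Pygm and Pgam2 lie below 0. Pygm was below detection in the 3 knockdown groups, so its points are not measured differences.

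No member passed between the knockdown groups in limma, where 0.087% of all genes were called for siBAF60b against siBRG1, 0.116% for siBAF60c against siBRG1 and 0% for siBAF60c against siBAF60b. At an unadjusted p under 0.05 the members numbered 1, 0 and 0. The shares over all genes were 6.05%, 7.08% and 4.97%. The 1 was Eno3, where the siBAF60b level exceeded that of siBRG1 by 0.56 (adjusted p 0.819). For Ckm the difference of siBAF60b from siBRG1 was 0.67 and that of siBAF60c 0.54 (adjusted p 0.9997 and 0.895). With 2 arrays a group these values do not show that the depletions act alike.

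Ordered by mean level, Ckm ran DM, siScramble, siBAF60b, siBAF60c, siBRG1 and GM, and of the 5 steps between neighbours the last alone, siBRG1 to GM, was called (3.08, adjusted p 0.000414). Mb kept that order and was called at 2 steps, DM to siScramble and siBRG1 to GM (3.003, 3.24e-05). For Ckb siBRG1 and siBAF60c changed places, and the step from siBAF60c to GM was called (2.61, 7.64e-05). Pgam2 ran siScramble, siBAF60b, DM, siBRG1, siBAF60c and GM, with the last step called (3.26, 0.000112). No step was called for Pygm, Pfkm, Aldoa, Eno3 or Ampd1.

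The genes most like Ckm over the 12 arrays, by Pearson correlation of log2 level, were Unc45b (0.991), Tnnt3 (0.988), Tnni1 (0.988), Asb2 (0.985) and Trim72 (0.983). Unc45b encodes a myosin chaperone and Tnnt3 and Tnni1 encode troponin subunits. Those most like Ckb were others, namely Mxd4 (0.991), Slc2a6 (0.986), Mycl (0.985), Frmpd1 (0.984) and Cdkn1c (0.982). Among the members, Mb stood at 0.982 with Ckm, Ckb at 0.947, Pgam2 at 0.942 and Eno3 at -0.08. These figures describe arrays of which the GM pair stands apart, so they carry mainly the step from GM to the other groups.

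Most muscle isoforms have partners encoded by other genes, of which 9 of 12 listed were tested. In DM 2 of the 9 rose, where 10.5% of all genes did, and 0 fell, where 8.93% did. Pfkl, the liver phosphofructokinase, read 9.67 and 9.66 in GM and 11.07 and 12.05 in DM (difference 1.90, adjusted p 0.00316). Aldoc, the brain aldolase, was below detection in GM at 5.001 and 4.95 and read 6.27 and 6.58 in DM, at least 2.22-fold higher (adjusted p 0.00356), and 7.93 and 7.07 in siScramble, at least 4.69-fold above GM. With median scaling neither passed in DM (Pfkl 1.05, adjusted p 0.142, and Aldoc 1.07, 0.109).

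Partners of the other members did not pass in DM. Pgam1, the broadly expressed mutase, was at -0.92 (adjusted p 0.0925) beside the rise of Pgam2. Eno2, the neuronal enolase, was at 1.06 (0.0561) beside the level Eno3. Pfkp was at -0.52, Pygb at 0.46, Ampd2 at -0.45 and Ampd3 at 0.64 (0.0899). Ckmt1 was below detection on all GM and DM arrays. Ampd3, the erythrocyte AMP deaminase, read 7.41 and 7.56 in GM, 8.09 and 8.16 in DM and 9.14 and 9.28 in siScramble. It rose in siScramble over GM by 1.72 (0.000381) and over DM by 1.08 (0.0320). The difference from DM did not pass without siScramble replicate 1 (1.15, 0.119), siScramble replicate 2 (1.01, 0.171) or DM replicate 2 (1.12, 0.0653), nor with the chip as a fixed block (1.05, 0.0705), array weights (1.08, 0.281) or only the groups compared (1.08, 0.357). With median scaling the rise over GM did not pass (0.92, 0.224) nor that over DM (1.05, 0.982).

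**Figure D4:**
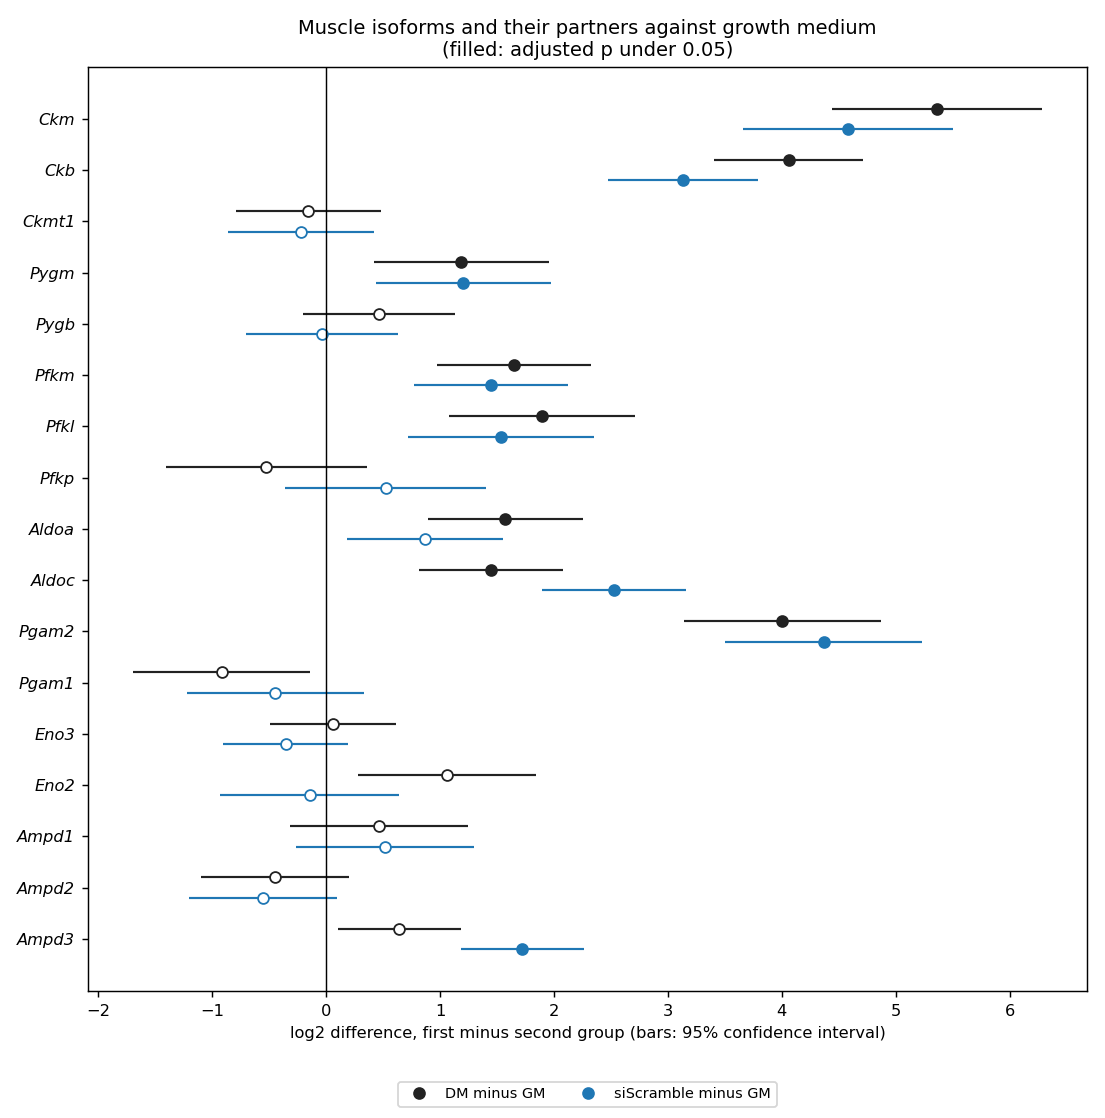
Log2 difference from GM (horizontal axis) of the muscle isoforms and their tested partners in DM and siScramble, as points with 95% confidence intervals and filled where the adjusted p was under 0.05. Pgam2 lies at 4.004 and 4.37 while its partner Pgam1 lies below 0, and both Pfkm and Pfkl are filled.

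Over all 8 lists of neighbouring pathway genes, partners included, 61 genes were tested, and in DM 14 rose and 2 fell, 26.2% against 19.4% of all genes. Of all genes 10.5% rose and 8.93% fell in DM, and the counts by list below stand beside these shares. In the glycolysis list 1 of 8 rose, Tpi1, the triose phosphate isomerase (1.23, adjusted p 0.0135). In the glycogen list 5 of 10 rose, among them Gaa, the lysosomal glucosidase that degrades glycogen (2.05, 0.000963), and Phka2, a regulatory subunit of phosphorylase kinase (1.73, 0.00551). Tpi1 did not pass without GM replicate 1 (1.28), GM replicate 2 (1.17) or DM replicate 2 (0.69). With only the groups compared it did not pass either (1.23, adjusted p 0.122). Phka2 did not pass without GM replicate 2 (1.35) or with array weights (1.73, adjusted p 0.0640). Tpi1 is given by the brightest of its probes, and with the mean of its probes it stood at 0.42 (0.234). Of 3 transport genes 0 passed, with Slc2a8 the largest at 0.49 (0.273).

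Of 7 genes of pyruvate entry into mitochondria 1 rose and 1 fell, both kinases that inhibit pyruvate dehydrogenase. Pdk4 read 9.01 and 9.33 in GM and 7.26 and 5.82 in DM and fell by 2.63 (adjusted p 0.000829). Pdk1 rose by 1.10 (0.0495), a call lost without GM replicate 1 (1.06), GM replicate 2 (1.14) or DM replicate 1 (0.70). The Pdk1 call was also lost without background correction (0.48, 0.0809) and with the authors' processed values (0.47, 0.0812). At an unchanged 1.10 it did not pass with no detection filter (0.0552), a replicate block (0.0545), array weights (0.171) or only the groups compared (0.127). In siScramble Pdk4 read 5.99 and 6.38, also lower than GM (-2.98, 0.000390).

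In the creatine list 1 of 4 rose. It was Gamt, which completes creatine synthesis, at 8.83 and 8.27 in GM, 11.98 and 11.03 in DM and 11.71 and 11.47 in siScramble (DM difference 2.96, adjusted p 4.41e-05). The purine nucleotide cycle list held opposite changes in 2 adenylosuccinate synthases. The muscle enzyme Adssl1 rose by 2.02 (0.000166), and Adss, which read 7.00 and 6.39 in GM and was below detection in DM, was at least 2.29-fold lower (0.00432). Adss did not pass without GM replicate 1 (-1.51, 0.0615).

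In the list of oxidative partners of myoglobin 3 of 12 rose, all of them heart and muscle isoforms of cytochrome oxidase subunits. Cox6a2 read 6.33 and 5.99 in GM and 10.28 and 9.60 in DM (difference 3.78, adjusted p 4.39e-05), and Cox8b rose by 2.39 (0.0269). Cox8b did not pass without GM replicate 1 (2.84), GM replicate 2 (1.95) or DM replicate 1 (1.71). Nor did it pass without background correction (1.43, adjusted p 0.0574), with the authors' processed values (1.39, 0.0587) or with array weights (2.39, 0.146). With median scaling Cox6a2, Gamt, Pdk4 and Adss kept their DM calls among the pathway genes named here, and Gaa, Phka2, Tpi1, Pdk1, Adssl1 and Cox8b did not.

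In siBRG1 against siScramble 0 of the 61 pathway genes passed, where limma called 0.28% of all genes. At an unadjusted p under 0.05 there were 10, against 8.07% of all genes. The largest differences by list were Aldoc at -0.51 among the partners, Pfkfb4 at -0.64 in glycolysis, Stbd1 at -0.66 in glycogen, Slc2a4 at 0.39 in transport, Pdk4 at 1.19 in pyruvate entry, Gamt at -0.93 in the creatine list, Adssl1 at -1.19 in the purine cycle (adjusted p 0.107) and Cox8b at -1.23 among the oxidative genes. Adssl1 read 10.79 and 10.77 in siScramble and 9.52 and 9.66 in siBRG1, and also 9.62 and 9.79 in siBAF60c but 10.82 and 10.85 in siBAF60b. Both siBRG1 and siBAF60c arrays thus lay below the siScramble pair and the siBAF60b arrays just above it. In siBAF60b and siBAF60c 0 of the 61 passed, where 0.00967% of all genes did in each. At an unadjusted p under 0.05 there were 1 and 4, against 3.53% and 4.61% of all genes.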

How the data were processed

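The authors deposited a scanner table of unlogged intensity with its detection p-value for 45281 probes, per the file headers, and a processed table of linear intensity (23165 probes). Ranks in the processed table equalled those of the scanner table (Spearman 1) and its columns shared their quantiles; its software and build are not given in the sources used here. None of the 22116 probes absent from it was detected.

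From the deposited intensity values, log2 values were computed by neqc (limma 3.58.1, R 4.3.3; background from detection p, offset 16, quantile normalization). The filter asked for detection p under 0.05 on 2 or more arrays (17565 probes), and the brightest probe stood for a gene. All 12 arrays in 6 groups entered lmFit and eBayes (6 residual and 8.17 prior degrees of freedom), and calls used a Benjamini-Hochberg adjusted p under 0.05. The number of arrays limits the precision, with a median SE of 0.31.

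Bounds written as "at least" use the lowest detected signal on the dimmer arrays and compare group means. They leave out the spread between arrays and the choice of processing, so a smaller fold is not excluded. Arrays lay on 3 BeadChips known from the array identifiers. Members and gene lists were chosen with earlier results of these data known. From the other pathway lists the text names the 2 called genes with the largest difference, or the largest where none was called, in DM against GM and in siBRG1 against siScramble, and all isoform partners. Alternatives covered background, scaling, the authors' table, filters, probe choice, chip and replicate blocks, weights, the samples fitted and each array left out.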

Additional observations from a re-analysis of the deposited data

Results flagged for a closer look

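Mb differed between siScramble and DM by -1.35 on the log2 scale (adjusted p 0.0324 in limma), although both groups were in differentiation medium. It was noted because the direct test between 2 groups with the same change of medium passed. The arrays read 10.85 and 10.16 in siScramble and 11.94 and 11.77 in DM. Its cause was not tested.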

How the results depend on the processing

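The 27 gene differences called in the 12 comparisons gave 403 values under the alternatives, of which 373 kept their direction and their call, 30 kept their direction and no longer passed, and 0 turned. Among the 81 differences not called, 19 of 1205 values passed and 57 changed sign. With median scaling the count of members called in DM against GM was 4 rather than 7, in siScramble against GM 4 rather than 6 and in siBRG1 against GM 4 rather than 5. In siScramble against DM it was 0 rather than 1 with median scaling, with the mean of a gene's probes, with array weights and with only the groups compared in the fit, and the cause was not tested. With each array left out in turn the counts ran from 6 to 7 for DM against GM, 4 to 6 for siScramble against GM, 0 to 3 for siScramble against DM, 4 to 5 for each knockdown against GM and 0 to 0 for the 6 comparisons among the transfected groups. Deviations of same-numbered replicates correlated at -0.04 to 0.33 over 15 pairs of groups, 8 of them above 0.1, which include all 6 pairs among the transfected groups (0.119 to 0.328). The labels do not say what the 2 numbers share. By the array identifiers, same-numbered arrays of siScramble, siBAF60b and siBAF60c lay on the same chips (0.253 to 0.328). So did those of GM and DM (0.06), whereas GM and siBRG1 (0.322) did not share the chip for both numbers. The part of the chip in these correlations was not tested. A replicate block gave 7 members in DM against GM, 6 in siScramble against GM, 1 in siScramble against DM, 5 in each knockdown against GM and 0 in the others. Among single genes, Eno3 in siBRG1 against GM passed without background correction (-0.72, adjusted p 0.0196). It also passed with the authors' processed values (-0.72, 0.0183) and with array weights (-0.73, 0.0239). Ckb in siBAF60c against GM did not pass with median scaling (1.72, 0.0528). Without background correction the DM difference was 3.26 for Ckm and 2.22 for Pgam2, against 5.36 and 4.004. The 16 called differences of pathway genes named in the text were put through the same alternatives, a choice made after seeing the data. Of 240 values 201 kept their call, 39 did not pass and 0 turned. Dim signals limit Pygm, Ampd1 and Ckmt2.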
